A study of Mus musculus with 6 samples.

Results

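The let-7 miRNAs are a family of small RNAs with a common seed, the stretch at the 5′ end that pairs with target mRNAs. They are low in dividing precursors, accumulate as cells mature, and repress growth and cell cycle genes. In progenitors the RNA-binding protein LIN28 binds the terminal loop of let-7 precursors and blocks their cutting by Dicer, and in the developing retina let-7, together with miR-9 and miR-125, is known for moving progenitors from early to late cell fates. The 4 precursors described here are mmu-let-7g, mmu-let-7i, mmu-let-7j and mmu-let-7k, the let-7 genes outside the a to f group. They were chosen by name from the 855 miRNA precursors of the table, and 10 further precursors (let-7a-1, a-2, b, c-1, c-2, d, e, f-1, f-2 and mir-98) make up the rest of the family.

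The retinas came from mice of 4 weeks on a mixed C57BL/6J - SJL background. All of them carried floxed Dicer1 alleles (Dicerfl/fl). The 3 conditional knockout libraries (cKO) came from littermates with the iCre75 transgene, which makes Cre recombinase in rod photoreceptors, and the 3 control libraries from mice without it. Dicer1 encodes the RNase that cuts miRNA precursors, and the other retinal cells of the cKO mice keep it. Each library was made from RNA of 6 pooled retinas. The labels call the libraries biological replicates without tying pools to mice, so p-values measure the spread between these pools.

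The library totals behind the RPKM values (reads scaled to the precursor's length and to the library total), as recovered from the deposited values, were 5480940 to 7478237 reads. The photoreceptor miRNA mir-182 alone took 53.2% to 57.4% of the total in control and 27.7% to 33.8% in cKO libraries. Each precursor of 7 marker lists was above 0 in every library. The summed RPKM of the photoreceptor list mir-182, mir-183 and mir-96 was 7568213 to 7894241 in control and 4037712 to 4911543 in cKO libraries. Most of it was mir-182, at a mean of 7295946 RPKM in control and 4024508 RPKM in cKO libraries. Of the 3 precursors 2 passed the test with lower values, and mir-183 did not (log2 fold change -0.11, limma adjusted p = 0.68). The summed RPKM of the inner retinal list (4 precursors of mir-181a and mir-181b) was 5318257 to 5718635 in control and 8571576 to 9429293 in cKO libraries. The pigment epithelium list (mir-204 and mir-211) held 655315 to 758334 and 1197357 to 1475670 RPKM, the endothelial and mural list (mir-126, mir-143 and mir-145a) 18667 to 34997 and 41036 to 54676 RPKM. For the red cell list (mir-451a, mir-486 and mir-144) the ranges were 16553 to 19359 and 26667 to 31080 RPKM, and mir-144 did not pass (limma adjusted p = 0.14). The list of Mueller glia and progenitors (3 precursors of mir-9) held 147400 to 193468 RPKM in control and 256649 to 281145 RPKM in cKO libraries. The neuron list (3 precursors of mir-124) overlapped between the groups, at 203586 to 291230 RPKM in control and 222199 to 265609 RPKM in cKO libraries, and none of its 3 precursors passed the test. The part of these changes in the let-7 values was not tested. In bulk retina, fewer cells of a type and less RNA per cell cannot be told apart, and a value per library total moves whenever the rest of the total moves.

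The mature sequences show how the members differ, and which of them hold the family's seed. They are those of RefSeq (build GRCm38.p6), written 5′ to 3′ with the seed, bases 2 to 8, in capitals. Added for comparison are let-7a, let-7f, let-7b, let-7c and let-7e, the other relatives that differ from a member by 2 bases or fewer.
let-7g: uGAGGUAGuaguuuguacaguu
let-7i: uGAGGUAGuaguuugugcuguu
let-7j: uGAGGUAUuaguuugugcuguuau
let-7k: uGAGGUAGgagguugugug
let-7a: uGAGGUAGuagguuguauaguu
let-7f: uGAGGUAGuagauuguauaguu
let-7b: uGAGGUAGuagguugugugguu
let-7c: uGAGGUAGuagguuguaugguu
let-7e: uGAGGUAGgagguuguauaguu

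Of the 11 different mature sequences of the family, 10 had GAGGUAG at bases 2 to 8, and let-7j was the exception with GAGGUAU. In the RefSeq table of 1738 mature mouse entries, GAGGUAU stood at these bases in 2, let-7j and miR-202-3p. Over 22 compared bases let-7j differed from let-7i by 1 substitution, G8U, where the first letter is the base of let-7i, the last that of let-7j, and positions count from 1 at the 5′ end. Over the 19 bases of let-7k its nearest relative was let-7b, again with 1 substitution, U9G, followed by let-7c (U9G and A17G) and let-7e (A17G and A19G) with 2 each. The mature let-7g differed by 2 substitutions from let-7a (G12U and U18C), from let-7f (A12U and U18C) and from let-7i (G17A and U19A). These distances bear on every value below, because a read with a mismatch to its own precursor can fit another, and no source used here states how many mismatches were allowed.

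The hairpins are those annotated for each member, with the mature RNA in capitals, and they show how far the members share a stem.
let-7g: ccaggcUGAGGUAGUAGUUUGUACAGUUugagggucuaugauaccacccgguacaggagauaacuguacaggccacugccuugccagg
let-7i: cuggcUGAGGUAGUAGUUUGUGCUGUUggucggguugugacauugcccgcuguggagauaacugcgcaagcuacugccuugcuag
let-7j: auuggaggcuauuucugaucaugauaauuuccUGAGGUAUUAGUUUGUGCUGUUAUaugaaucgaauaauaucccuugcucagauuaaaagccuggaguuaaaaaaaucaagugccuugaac
let-7k: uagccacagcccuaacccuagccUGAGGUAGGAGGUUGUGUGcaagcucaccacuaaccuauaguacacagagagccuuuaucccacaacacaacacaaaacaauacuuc

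In GRCm38.p6 the let-7g hairpin lies at chr9:106178840-106178927 on the plus strand, inside Wdr82 and outside its annotated exons in GENCODE M21, on the strand of that gene. The let-7i hairpin lies at chr10:122985640-122985724 on the minus strand and overlaps an exon of D630033A02Rik, a transcribed processed pseudogene on the same strand. For let-7j, at chr3:140028249-140028370 on the plus strand, and let-7k, at chr5:147283189-147283298 on the minus strand, GENCODE M21 shows no overlapping gene other than the miRNA itself. The authors used mm9, and no coordinate was converted. RefSeq lists mature RNAs of both arms for let-7g and let-7i and a single mature RNA each for let-7j and let-7k.

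The predicted folds parted the members into pairs. The minimum free energy of the hairpin (RNAfold) was -40.2 kcal/mol for let-7g (88 bases) and -42.2 kcal/mol for let-7i (85 bases), within the -48.9 to -39.0 kcal/mol of the 10 other family hairpins. It was -24.6 kcal/mol for let-7j (122 bases) and -22.1 kcal/mol for let-7k (110 bases), although these hairpins are longer than the 83 to 108 bases of the others. In the predicted structure 20 of 22 mature bases were paired in let-7g and in let-7i, 17 of 24 in let-7j and 14 of 19 in let-7k. The paired mature bases of let-7g, let-7i and let-7j faced the 3′ side of the hairpin, as in the 10 other family hairpins, while all 14 of let-7k faced its 5′ side. GGAG, the letters that the zinc knuckles of LIN28 bind, was searched on the hairpin strand. It stood between the arms of let-7g and let-7i and of 7 of the 10 other family hairpins, outside the mature RNA in let-7j, and inside it in let-7k. The let-7e hairpin, with a copy between its arms, also held a copy inside its mature RNA. Of all 1005 mouse hairpins in the table, 44.5% held GGAG somewhere.

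The level of let-7g, a miRNA found in most tissues, was by far the highest of the 4. It stood at 138019, 110082 and 119647 RPKM in control 1 to 3 and at 137610, 167872 and 157162 RPKM in cKO 1 to 3. Control 1 was level with cKO 1, so the groups overlapped, and the other cKO libraries lay above all controls. The control mean was 122583 ± 14198 RPKM and the cKO mean 154215 ± 15345 RPKM (SD, n = 3 each). As deposited let-7g rose 1.26-fold (log2 fold change 0.33, SE 0.13, 95% interval 0.054 to 0.61; limma adjusted p = 0.036). The call ended without control 2 (log2 fold change 0.26, limma adjusted p = 0.14), without control 3 (0.32, adjusted p = 0.083), without cKO 2 (0.27, adjusted p = 0.15) and without cKO 3 (0.32, adjusted p = 0.10). It also ended with all 855 precursors in the fit (adjusted p = 0.12) or with no variance trend (adjusted p = 0.086).

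Next in level was let-7i, which is likewise made in many tissues. Its values were 29796, 27068 and 29470 RPKM in control 1 to 3 and 35897, 41891 and 41884 RPKM in cKO 1 to 3. Every cKO library lay above every control library, and cKO 1 was the lowest of the cKO group. The mean went from 28778 ± 1490 to 39891 ± 3459 RPKM (SD, n = 3 each). As deposited let-7i rose 1.38-fold (log2 fold change 0.47, SE 0.12; limma adjusted p = 0.0062), with log2 fold changes of 0.43 to 0.54 and adjusted p of 0.0043 to 0.042 when each library was left out in turn.

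The 1-base relative of let-7i, let-7j, stood at 7219, 5431 and 6101 RPKM in control 1 to 3 and at 9164, 10845 and 11747 RPKM in cKO 1 to 3. The groups did not overlap, with control 1 the highest control and cKO 1 the lowest cKO library. The control mean was 6250 ± 903 RPKM and the cKO mean 10585 ± 1311 RPKM (SD, n = 3 each), and as deposited let-7j rose 1.70-fold (log2 fold change 0.76, SE 0.15; limma adjusted p = 0.0019).

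The lowest level was that of let-7k, at 280, 340 and 408 RPKM in control 1 to 3 and 494, 702 and 673 RPKM in cKO 1 to 3, again without overlap between the groups. The control mean was 343 ± 64.3 RPKM and the cKO mean 623 ± 113 RPKM (SD, n = 3 each), and as deposited let-7k rose 1.82-fold (log2 fold change 0.86, SE 0.19; limma adjusted p = 0.0033). The depth behind it was 230, 258 and 317 reads in control and 376, 534 and 406 reads in cKO libraries. Its share of the library was lowest in control 1, at 0.00308% (Wilson 95% interval 0.00270% to 0.00350%), and highest in cKO 2, at 0.00772% (0.00710% to 0.00841%). In the nearest libraries of the groups the Wilson 95% intervals overlapped, at 0.00402% to 0.00501% in control 3 and 0.00491% to 0.00601% in cKO 1. Reads amplified by PCR and counted without molecular identifiers are not independent, so such intervals hold counting error alone. For let-7g the reads numbered 66785 to 102143 per library, for let-7i 15862 to 24620 and for let-7j 4568 to 9148.

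**Figure D1:**
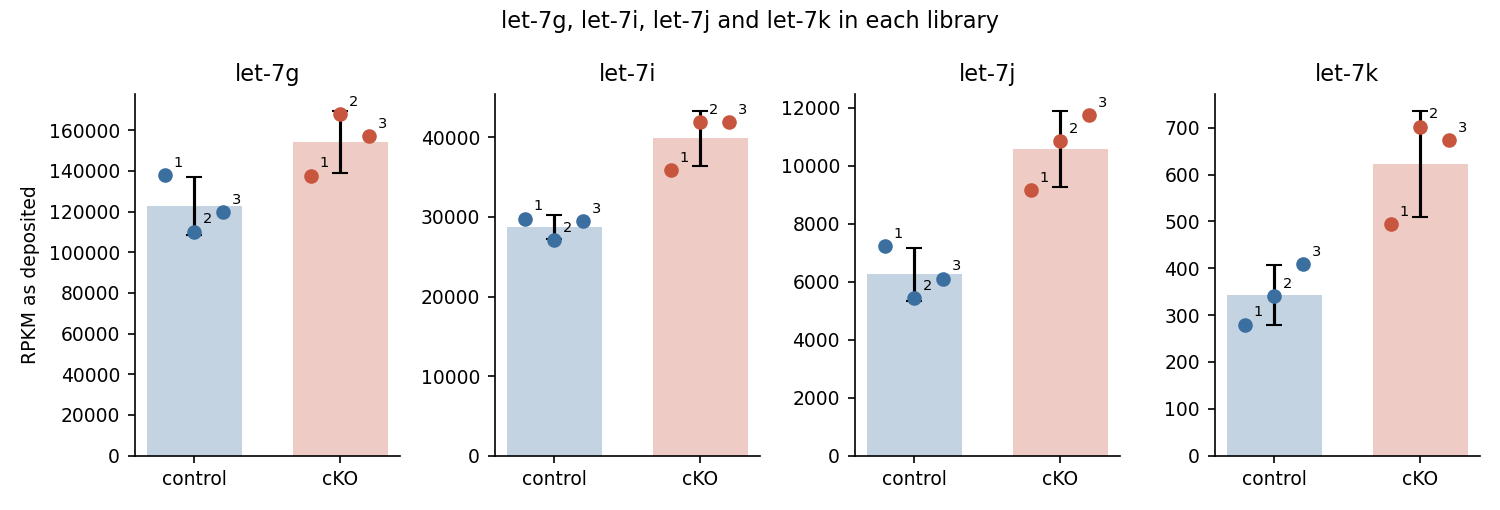
Deposited RPKM of let-7g, let-7i, let-7j and let-7k (linear axes from 0, a separate scale for each) in 3 control and 3 cKO libraries; points are libraries labelled by replicate number, bars the group mean and whiskers the SD. The groups overlap for let-7g, where control 1 (138019 RPKM) is level with cKO 1 (137610 RPKM), and are apart for the other 3.

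The order of levels per length was let-7g, let-7i, let-7j, let-7k in each of the 6 libraries, and each step was wider than the spread of its neighbours. By mean RPKM over all libraries they ranked 24th, 48th, 90th and 210th of 855 precursors. In the rest of the family the most abundant precursor was let-7f-2, at a mean of 179295 RPKM, and the least abundant let-7d, at 36540 RPKM. So let-7g lay among the abundant relatives, let-7i just below let-7d, and let-7j and let-7k far below all of them.

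Part of these levels is shared between precursors. The reads at the 14 family precursors summed to 10.1% to 16.7% of the library total, while the highest single precursor held 1.26% to 2.05%, and over the whole table the reads at precursors summed to 1.55 to 1.86 times the total. Reads that fit several precursors therefore appear at each of them, and the family's values are not separate measurements. The reads at let-7g came to 79.7%, 77.0% and 76.1% of those at let-7a-1, which differs from it by 2 bases, in control 1 to 3 and to 73.1%, 72.2% and 72.0% in cKO 1 to 3. The reads at let-7j came to 34.8%, 28.8% and 29.7% of those at let-7i in control 1 to 3 and to 36.6%, 37.2% and 40.3% in cKO 1 to 3. Those at let-7k came to 0.612%, 0.844% and 0.901% of the reads at let-7b in control and to 0.801%, 0.906% and 0.909% in cKO retina. These read ratios of let-7g were lower, and those of let-7j higher, in every cKO library than in every control library, whereas those of let-7k overlapped. How many of the reads at let-7j or let-7k were cut from their own hairpins was not tested.

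The members rose within a broad rise of the deposited values. All 4 passed the test with higher values in cKO retina, as did 69.4% of the 461 tested precursors (those averaging 10 RPKM or more), and 1.74% passed with lower values (limma, adjusted p below 0.05). The groups were apart, with cKO above control, in 3 of the 4 members and in 71.6% of all tested. The median log2 fold change of all tested precursors was 0.74. Against that median let-7g stood at -0.41, let-7i at -0.27, let-7j at 0.022 and let-7k at 0.12 on the log2 scale. Of the 461 precursors, 385 had a higher log2 fold change than let-7g, 349 than let-7i, 224 than let-7j and 173 than let-7k.

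**Figure D2:**
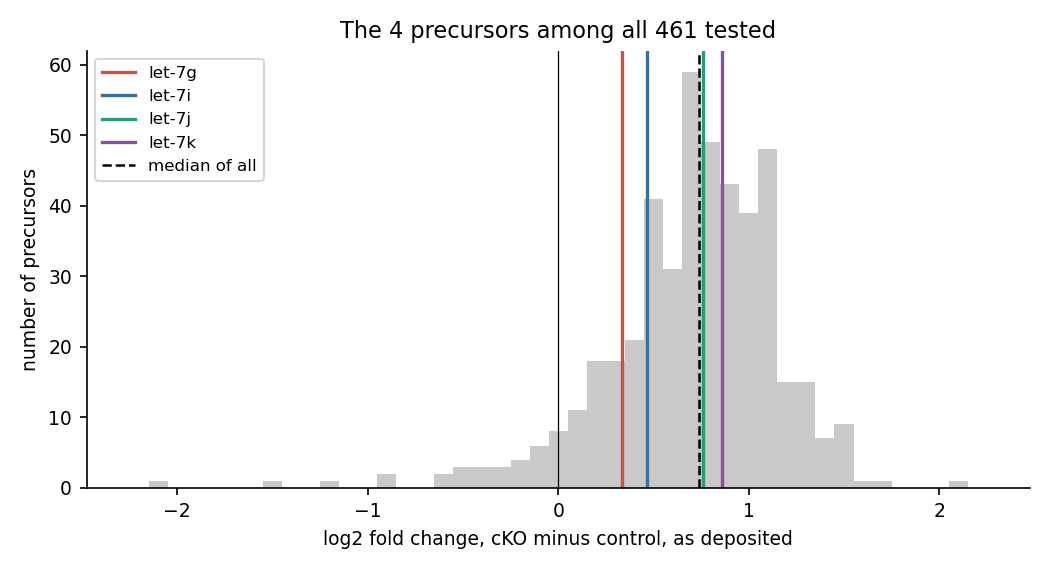
Number of precursors (y axis) by log2 fold change of cKO minus control as deposited (x axis, bins of 0.1) for all 461 tested; coloured lines mark the 4 members and the dashed line the median of all at 0.74. The lines of let-7g (0.33) and let-7i (0.47) lie left of the median, that of let-7j (0.76) beside it and that of let-7k (0.86) right of it.

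Median-of-ratios scaling moved all values together. It brings the typical precursor to the same level in all libraries, and took the median of all tested precursors from 0.74 to 0.014. After it the log2 fold change of let-7g was -0.40 (SE 0.13; limma adjusted p = 0.075), that of let-7i -0.27 (SE 0.11; adjusted p = 0.17), that of let-7j 0.027 (SE 0.15; adjusted p = 0.92) and that of let-7k 0.13 (SE 0.16; adjusted p = 0.71). None of the 4 passed, where 2.17% of all tested passed with higher and 9.98% with lower values. At an unadjusted limma p below 0.05, let-7g and let-7i were lower and no member was higher. Of all 461 tested, 76 were lower and 42 higher at that unadjusted threshold. So let-7g and let-7i turned sign and let-7j and let-7k kept theirs, without a call. The scaled RPKM of let-7g ran from 141511 to 186356 in control and from 110185 to 124639 in cKO libraries. That of let-7i ran from 34855 to 40232 and from 28743 to 32076. In both every cKO library lay below every control library, as in the other family precursors except let-7b and mir-98, which overlapped. How many of all tested precursors were placed so after this scaling was not counted. The scaled values of let-7j and let-7k overlapped between the groups.

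In the family as a whole 14 of 14 precursors passed with higher values as deposited, against the 69.4% of all tested, and their median log2 fold change was 0.47 against 0.74. The 10 other precursors ran from 0.39 for let-7f-1 to 0.70 for let-7b, with a median of 0.45. The members held the ends of the range, let-7g the lowest value of the 14 and let-7k and let-7j the highest. With all 855 precursors in the fit 6 of 14 passed, beside 245 of the 855 with higher values. Without control 2 or without cKO 2, 8 of 14 passed, beside 255 and 252 of the 461 tested. After median-of-ratios scaling none of 14 passed, and the family median was -0.27. Without adjustment 7 of 14 had a limma p below 0.05 in that fit, all on the lower side, let-7g and let-7i among them. Of all 461 tested precursors, 76 had such a p on the lower side and 42 on the higher side.

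Ratios taken within a library do not depend on its total or on any factor applied to the whole library, and they compare how the members' values moved. Reads that fit several precursors can enter both sides of a ratio, and how far they did was not tested. Quantile normalization, which does not apply 1 factor to a library, does change these ratios, and its values are given after those of the deposited RPKM. The RPKM ratio of let-7i to let-7g was 21.6%, 24.6% and 24.6% in control 1 to 3 and 26.1%, 25.0% and 26.7% in cKO 1 to 3. The groups were apart, with control 2 and control 3 close to cKO 2. The log2 ratio was higher by 0.14 in cKO retina (exact two-sided permutation p = 0.1, the smallest that 3 libraries against 3 allow), and by 0.073 without control 1. The log2 ratio of let-7j to let-7g was -4.26, -4.34 and -4.29 in control 1 to 3 and -3.91, -3.95 and -3.74 in cKO 1 to 3. It was higher by 0.43 in cKO retina, wider than the spread of either group (SD 0.042 and 0.11, n = 3 each; exact permutation p = 0.1).

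The log2 ratio of let-7j to let-7i was higher by 0.29 in cKO retina (exact permutation p = 0.1), with control 1 at -2.05 and cKO 1 at -1.97 as the nearest libraries. For let-7k the ratios varied more. Its log2 ratio to let-7g was -8.95, -8.34 and -8.20 in control 1 to 3 and -8.12, -7.90 and -7.87 in cKO 1 to 3, higher by 0.53 (exact permutation p = 0.1) and by 0.30 without control 1. Its log2 ratios to let-7i and to let-7j overlapped between the groups, with differences of 0.39 (exact permutation p = 0.2; 0.23 without control 1) and 0.10 (exact permutation p = 0.9; -0.15 without control 1).

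Against the summed RPKM of the 10 other family precursors, let-7g had a log2 ratio of -3.08, -3.12 and -3.14 in control 1 to 3 and of -3.22, -3.24 and -3.25 in cKO 1 to 3. It was lower in cKO retina by a log2 difference of -0.12, with SDs of 0.029 and 0.014 (n = 3 each; exact permutation p = 0.1), and the differences without each library ran from -0.14 to -0.11. For let-7i the log2 ratio to the same sum did not separate the groups, at a difference of 0.013 (SD 0.082 in control and 0.051 in cKO; exact permutation p = 0.8). It was higher by 0.31 for let-7j (exact permutation p = 0.1), with every cKO library above every control library. For let-7k the difference was 0.41 with overlapping groups (exact permutation p = 0.2), and 0.20 without control 1.

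Together the 4 members held 13.0%, 13.0% and 12.9% of the family's summed RPKM in control 1 to 3 and 12.5%, 12.2% and 12.4% in cKO 1 to 3, a difference of -0.59 percentage points (exact permutation p = 0.1). Reads that fit several precursors count at each of them in these sums. The share is therefore one of summed precursor values and not of let-7 RNA. The log2 ratio of let-7g plus let-7i to the 10 others differed by -0.097 between cKO and control (exact permutation p = 0.1). In all 12 such relations were computed. In 8 of them the groups were apart, and their adjusted p was 0.15 (Benjamini-Hochberg over the 12), so none passed 0.05 in a design that cannot reach it.

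After quantile normalization the groups were apart in 4 of the 12 relations. These were the log2 ratio of let-7i to let-7g (higher by 0.22 in cKO retina), that of let-7g to the 10 others (difference -0.16), that of let-7g plus let-7i to the 10 others (-0.12) and the members' share of the family (-0.88 percentage points), each with an exact permutation p = 0.1. The ratios of let-7j no longer separated the groups. Its log2 difference was 0.21 to let-7g (exact permutation p = 0.2), -0.0062 to let-7i (exact permutation p = 1.0) and 0.048 to the 10 others (exact permutation p = 0.8). Those of let-7k were 0.18 to let-7g, -0.036 to let-7i, -0.029 to let-7j and 0.018 to the 10 others, all with overlapping groups. For let-7i the difference to the 10 others was 0.054, also with overlap. In the deposited RPKM the groups thus separated by the ratios of let-7j to let-7g, let-7i and the 10 others, and of let-7k to let-7g. After quantile normalization they did not. The ratio of let-7g to the 10 others was lower in every cKO library in both. Whether single precursors of the 10 moved in the same way against that sum was not tested. Their log2 fold changes as deposited ran from 0.39 (let-7f-1) to 0.70 (let-7b), beside 0.33 for let-7g.

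**Figure D3:**
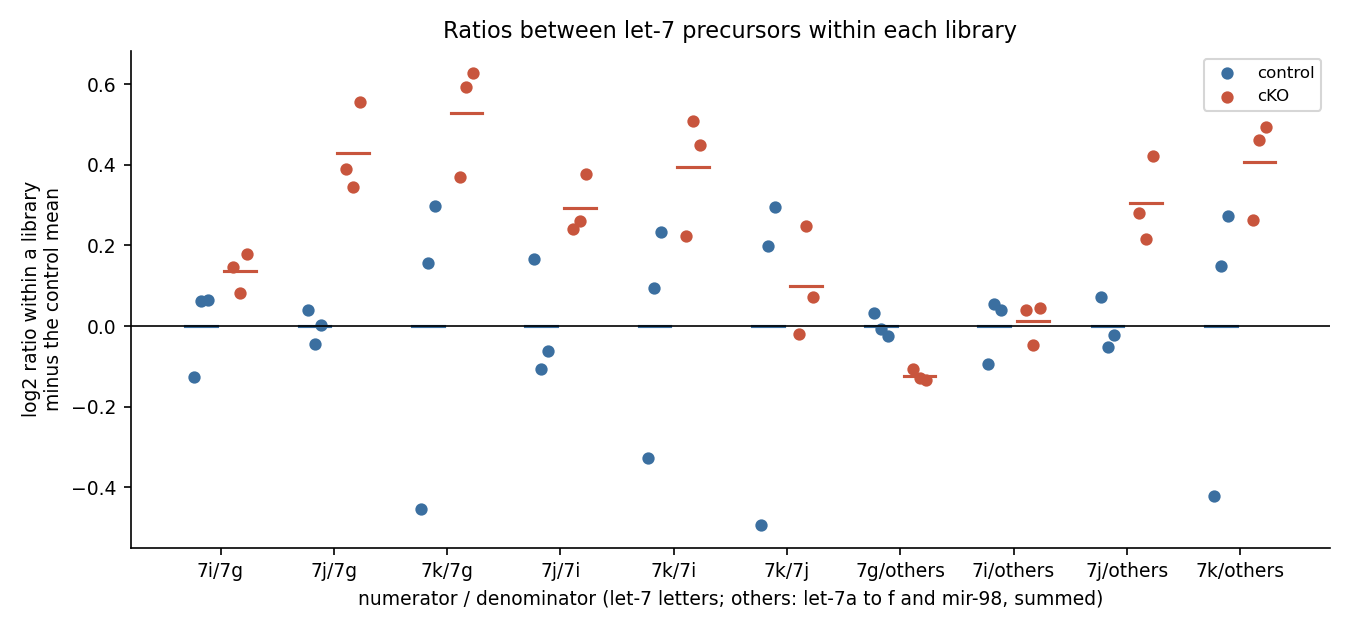
Log2 ratio of deposited RPKM within each library, minus the control mean of that ratio (y axis), for 10 pairs of let-7 precursors (x axis; others means let-7a to f and mir-98, summed); points are libraries and short lines group means. The ratio of let-7g to the others is lower in all 3 cKO libraries, those of let-7j to let-7g, let-7i and the others are higher as deposited (they overlap after quantile normalization), and those of let-7k are spread mainly by control 1.

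The profiles over the 6 libraries showed which precursors moved most like the members. Likeness was the root-mean-square difference of log2(RPKM + 1) after each precursor was centred on its own mean, over 292 precursors outside the family with a mean of at least 100 RPKM. Nearest to let-7g was mir-1839, at 0.077, followed by mir-1843b (0.097), mir-1843a (0.10), mir-128-1 (0.12) and mir-128-2 (0.12), where the median of all candidates was 0.31. Nearest to let-7i were mir-128-1 (0.065) and mir-128-2 (0.067), copies of a miRNA of neurons, then mir-30b (0.074), mir-1843b (0.083) and mir-30c-1 (0.086), with a median of 0.26. The log2 fold changes of these precursors lay between 0.33 (mir-1839, which did not pass, limma adjusted p = 0.10) and 0.52 (mir-128-1). Among the members let-7g and let-7i were nearest to each other, at 0.097, and let-7g and let-7k farthest apart, at 0.36.

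**Figure D4:**
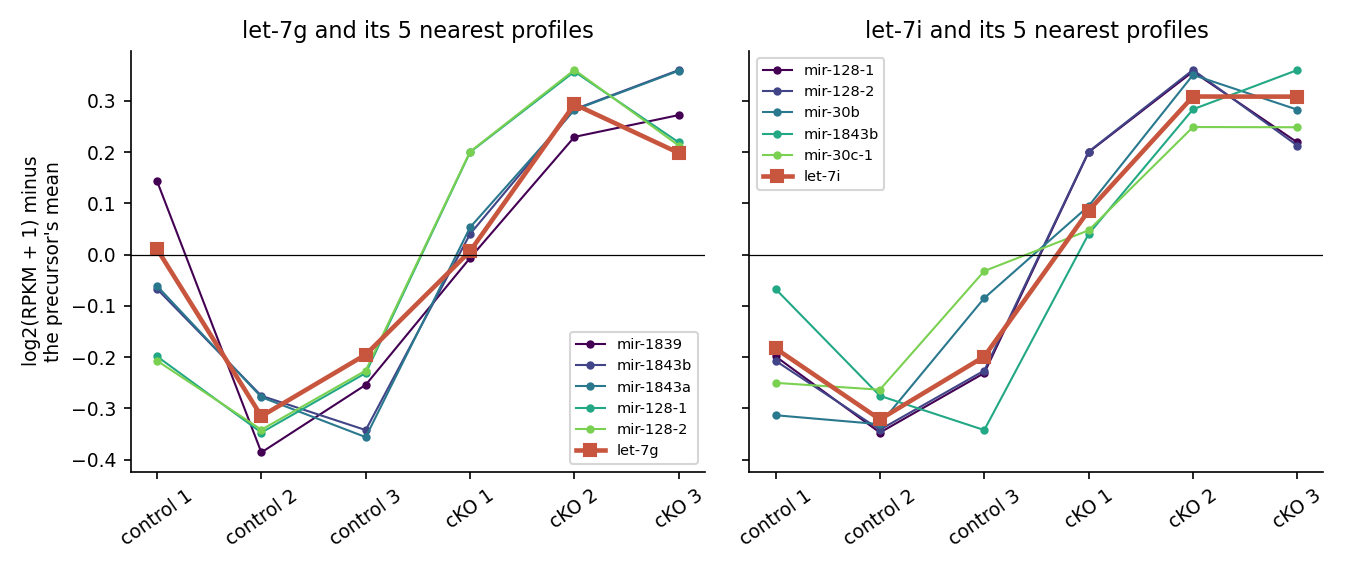
Log2(RPKM + 1) minus the precursor's mean over the 6 libraries (y axis) in each library (x axis) for let-7g and let-7i (thick lines) and the 5 precursors outside the family with the nearest profile; lines only join values of a precursor. The profile of let-7g meets in control 1 and cKO 1, near 0, while that of let-7i is below 0 in all controls and above 0 in all cKO libraries.

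On mouse chromosome 9 in GRCm38.p6, mir-135a-1 lies 24.6 kb from let-7g. It stood at 416, 562 and 617 RPKM in control 1 to 3 and at 1011, 948 and 890 RPKM in cKO 1 to 3, with no overlap. It rose 1.81-fold as deposited (log2 fold change 0.85, SE 0.17; limma adjusted p = 0.0020), beside 1.26-fold for let-7g, and after median-of-ratios scaling it stood at 0.12 (adjusted p = 0.71). The difference between the pair was not tested.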

How the data were processed

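Each small RNA library started from 1 µg of RNA pooled from 6 retinas, with 11 rounds of PCR and a gel selection for miRNA-sized inserts, and shared a 50-base single-end run, per the labels' protocols. The authors deposited RPKM values per precursor, per the file headers. Bowtie and mm9 are named in the submitters' processing notes, and the sources used here state no version, annotation, number of mismatches or treatment of reads that fit several precursors. The deposited RPKM values do not give reads, so these were recovered: value times precursor length was a whole multiple of a fixed step in 100.0% of 4926 values (tolerance 0.01 reads). Lengths were kept or chosen because they gave whole reads, and values at 0 are always whole. This percentage is therefore no independent check. Lengths came from RefSeq for 641 precursors, the whole family among them. For 180 others the shortest length giving whole reads was taken, a rule right in 95.1% of 472 precursors with a known length. Those 180 enter the voom alternative, the reads summed over the whole table and the percentage of whole values.

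Limma 3.58.1 (R 4.3.3; eBayes with a variance trend, two-sided) compared cKO with control on log2(RPKM + 1), unscaled, for the 461 precursors whose mean over the libraries reached 10 RPKM. P-values were adjusted by the Benjamini-Hochberg method, and calls were made below 0.05. Fold changes are on that log2 scale, which understates changes of low precursors. Single values were tested by exact two-sided permutation of the libraries. Wilson intervals came from scipy 1.17.1, folds from RNAfold 2.7.2, and figures from matplotlib 3.10.9. The fit was tested on simulated data with changes in both directions and fixed library totals. In the deposited values most calls were rises, so that test does not bear on the scaling. The members, lists and tests were chosen with earlier results of these data known. Named are the 4 members, mir-182, mir-135a-1, the family's extremes in level and change, and for let-7g and let-7i the 5 nearest profiles. Alternatives covered pseudocount, filter, scaling, variance model, library weights, voom on recovered reads, leaving out each library and a replicate block. Leaving out libraries for the ratios of single members was added after seeing the data, except for let-7i to let-7g, as was quantile normalization for every ratio.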

Additional observations from a re-analysis of the deposited data

How the results depend on the processing

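The calls of the 4 members rested on the library total. The log2 fold changes of let-7g, let-7i, let-7j and let-7k were -0.40, -0.27, 0.027 and 0.13 with median-of-ratios scaling, -0.14, 0.077, 0.071 and 0.041 with quantile normalization, -0.29, -0.16, 0.14 and 0.24 with totals without mir-182 reads, and -0.18, -0.043, 0.25 and 0.35 with totals without the 10 most abundant precursors. No member passed in any of these 4 settings. The call of let-7g, at 0.33, also ended with no filter and with no variance trend. The other settings, different pseudocounts, a minimum of 100 RPKM, array weights and voom on recovered reads, kept sign and call of all 4 members.

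With each library left out, let-7g ran from 0.26 to 0.42, let-7i from 0.43 to 0.54, let-7j from 0.67 to 0.87 and let-7k from 0.72 to 1.02. The number of family precursors called higher, 14, was 0 in each of the 4 scalings and 6 with no filter, and ran from 8 to 14 with each library left out. Of all precursors, the number called higher (320) and lower (8) was 10 and 46 with median-of-ratios scaling, 14 and 31 with quantile normalization, 20 and 36 without mir-182 reads, and 57 and 29 without the 10 most abundant. The number of all precursors called higher was 245 with no filter, and ran from 252 to 322 with each library left out. The number called lower was 4 at a minimum of 100 RPKM and 14 with array weights, and ran from 4 to 12 with each library left out. The cause of these changes was not tested.

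The difference in log2 ratio of let-7k to let-7j ran from -0.15 to 0.25, and that of let-7i to the 10 others from -0.035 to 0.042, with each library left out. With quantile normalization the differences of let-7j to let-7i, let-7k to let-7i and let-7k to let-7j turned to -0.0062, -0.036 and -0.029. The other ratio differences kept their sign in these fits. With recovered reads the log2 differences between single precursors cannot change, because length and library total cancel. Those to the 10 others and the members' share could change and kept their sign. A replicate block left every member's call in place (let-7g limma adjusted p = 0.041). For the ratios it gives the unpaired difference by arithmetic. Deviations of same-numbered libraries correlated at 0.19, 0.26 and 0.0093, so the numbers were not taken as pairs. Depth limits let-7k most, at 230 to 534 reads per library.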
